A study of Mus musculus with 24 samples.

Results

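Insulin was compared with vehicle in insulin receptor knockout (IRKO) mouse primary cortical astrocytes, using the 4 libraries titled IRKO with insulin and the 4 titled IRKO with vehicle, which are 8 of the 24 libraries of the series. The cells came from the cortices of newborn pups that carried floxed alleles of Insr, and cells other than astrocytes had been reduced by shaking. IRKO cultures had received an adenovirus for a fusion of Cre and green fluorescent protein, and the floxed control cultures (IRflox) an adenovirus for green fluorescent protein alone, so genotype and virus cannot be told apart. All groups were starved of serum overnight in medium with albumin and then treated for 6 h with insulin or IGF-1, each at 100 nM, or with vehicle. The IRflox groups with vehicle and insulin and the IRKO group with IGF-1, 4 libraries each, are used below for comparison, and all 24 libraries share 1 estimate of the spread in the fit. Separate cultures are not stated for the 4 libraries of a group. The p-values therefore reflect the spread between libraries alone, which may be technical.

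Insulin acts through the insulin receptor and, at high concentration, through the related IGF-1 receptor, and both receptors use the IRS adaptor proteins to switch on PI3-kinase and the kinase AKT. AKT keeps FOXO transcription factors out of the nucleus and raises the activity of mTORC1, a kinase complex that favours protein and lipid synthesis and restrains autophagy, the delivery of cell contents to the lysosome. SREBP factors, which are processed under the control of sterols and of this pathway, drive genes of cholesterol and fatty acid synthesis. In the brain, astrocytes are a main source of cholesterol for neurons.

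The targeted gene, Insr (chromosome 8, 3122061 to 3279617, minus strand, mm10, GENCODE M21), encodes the insulin receptor. CPM is the gene's counts divided by the library's total over the tested genes, adjusted by the TMM scaling factor between libraries, times 10 to the power 6. Summed levels of cell type markers use the library's total of all gene counts instead. Under vehicle the level of Insr was 59.99, 66.9, 58.8 and 60.6 CPM in the 4 IRflox libraries and 39.7, 37.7, 40.5 and 43.7 CPM in the 4 IRKO libraries. All IRKO libraries were below all IRflox libraries, and the IRKO mean was 65.6% of the IRflox mean (log2 difference -0.61, SE 0.0546, edgeR adjusted p = 3e-10). The counts cover the whole gene, including exons outside the floxed part, so the remaining level is not the share of intact transcripts. Insulin lowered the level further: the 4 IRKO insulin libraries held 26.6, 29.6, 29.0 and 30.6 CPM, all below the vehicle libraries, a log2 change of -0.48 (SE 0.0586, edgeR adjusted p = 5.5e-09).

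Gene counts totalled 16114140 to 19008077 per library in the 8 libraries. Of 32719 genes in the files, 15599 had enough counts to be tested. The biological coefficient of variation, the spread between libraries of a group beyond counting error, was 4.92%. The first principal component of the 8 libraries held 45.6% of the variance and separated insulin from vehicle. The second held 10.8%, with vehicle library 1 and insulin library 4 at one end. These same libraries had the highest shares of reads outside genes, 22.5% and 21.9%, against 16.5 to 19.96% in the other 6. Alb, the liver protein albumin, had 0, 0, 0 and 112 counts in the vehicle libraries and 133, 1, 86 and 60 counts in the insulin libraries, and the other 14 hepatocyte markers reached at most 31 counts in a library. In the IRflox libraries Alb measured 0.115, 0.128, 0 and 0.114 CPM under vehicle and 9.27, 6.07, 7.30 and 2.81 CPM under insulin. The IRKO IGF-1 libraries held 2.18, 1.43, 0.424 and 1.48 CPM. In IRflox, Alb was thus higher in every insulin library than in any vehicle library. The part of liver RNA in the results, the genotype comparison included, was not tested. Of the 7239 genes called with all 8 libraries, 6181 were called the same way without vehicle library 1 and insulin library 4, and 3811 without the 4 libraries with over 50 Alb counts, which leaves 1 insulin library that is assumed to vary like the other groups; in neither case was one called the other way. Both were chosen after seeing the data.

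In IRKO astrocytes insulin raised genes of cholesterol and fatty acid synthesis, ribosome biogenesis, protein folding and tubulins, and lowered FOXO targets and genes of autophagy and the lysosome. The largest rise, among genes above a mean log2 CPM of 2 whose groups did not overlap, was that of Tuba8, a tubulin, at a log2 change of 2.02, and the largest fall that of Fbxo32, a ubiquitin ligase of muscle atrophy, at -3.02. At an adjusted p under 0.05, 7239 genes changed (46.4% of those tested): 3852 rose (24.7%) and 3387 fell (21.7%). Most changes were small: 697 genes rose by more than 1.5-fold (4.47%) and 654 fell by more than 1.5-fold (4.19%), and 202 (1.29%) and 175 (1.12%) passed 2-fold. In a test against a 1.5-fold change rather than against no change, 184 genes rose (1.18%) and 196 fell (1.26%). The 4 vehicle and 4 insulin libraries did not overlap for 6056 genes (38.8%), with insulin higher for 20.5% and lower for 18.3%. The median log2 change over all genes tested was 0.01.

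**Figure D1:**
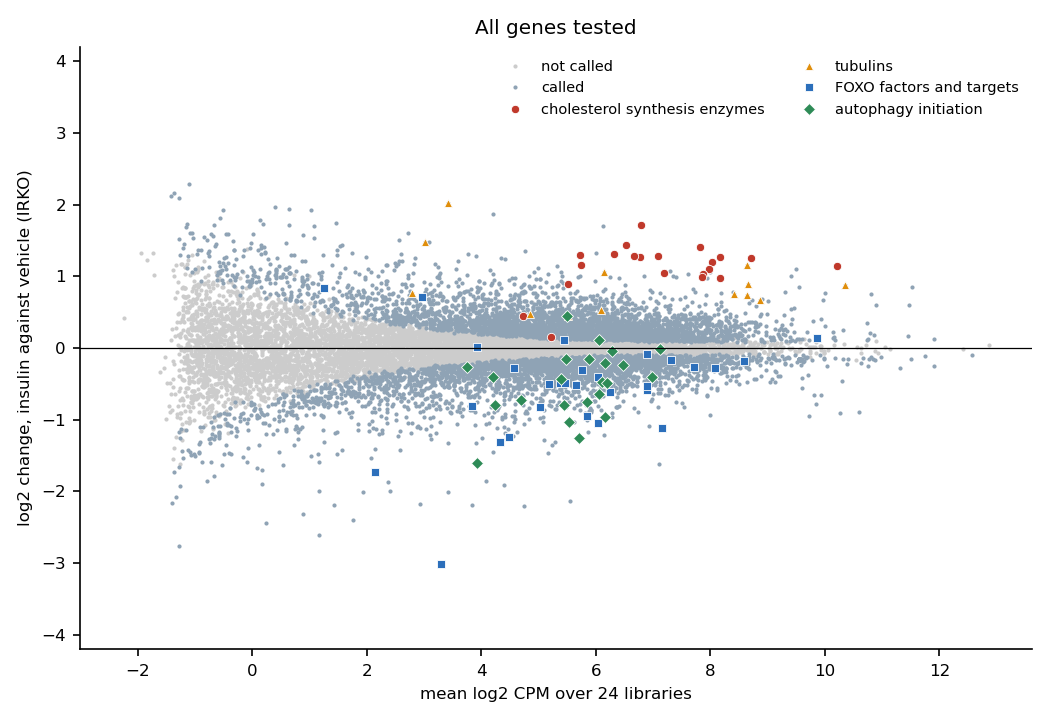
Log2 change of insulin against vehicle in IRKO astrocytes (vertical axis) against mean log2 CPM over 24 libraries (horizontal axis), 1 point per gene tested; coloured symbols mark members of 4 gene lists. The 21 cholesterol synthesis enzymes and the 13 tubulins lie above 0, and most FOXO targets and autophagy initiation genes lie below it, with Fbxo32 lowest at -3.02.

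**Figure D2:**
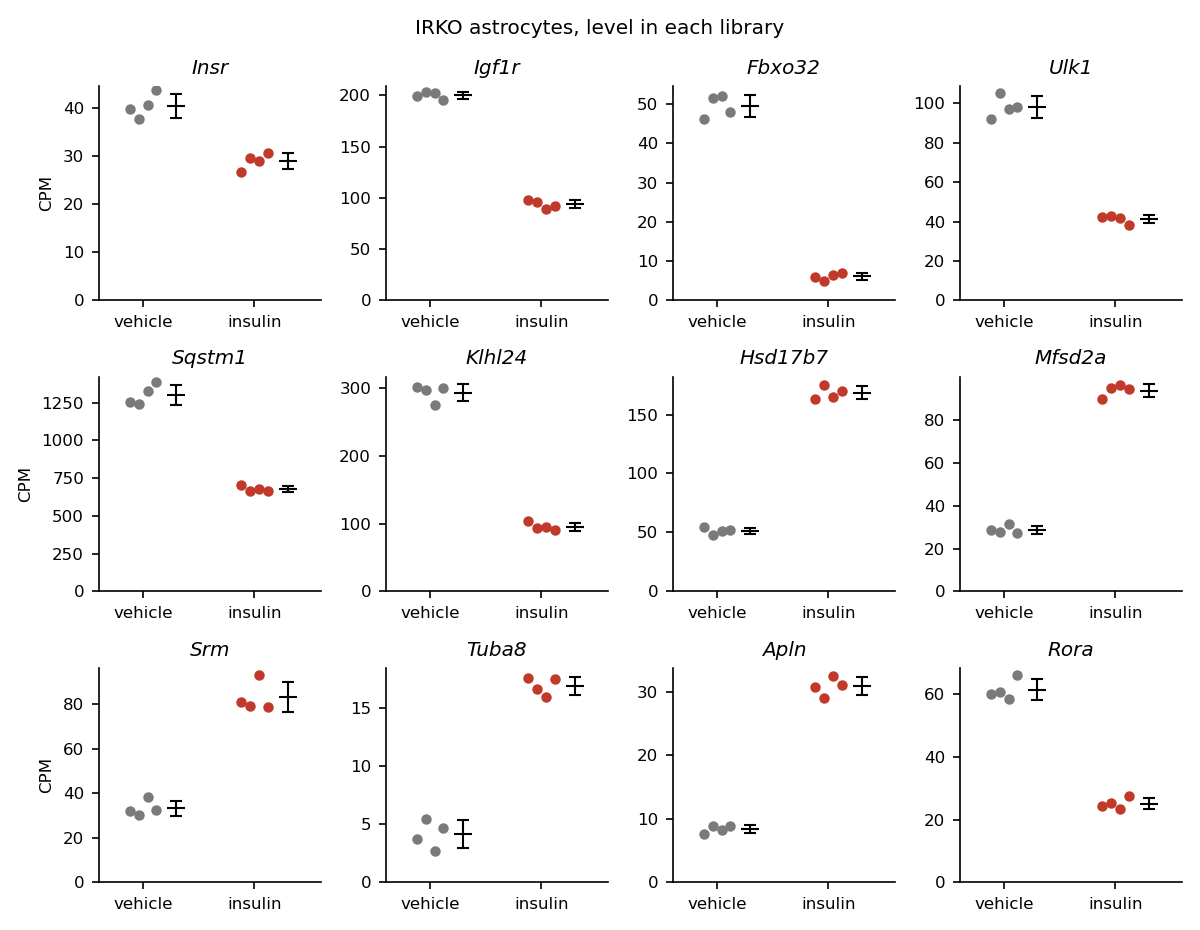
CPM of 12 genes in each IRKO library (points; vehicle grey, insulin red), with the mean and SD of the 4 libraries beside them; each vertical axis starts at 0. For each of the 12 genes the 4 insulin libraries lie entirely above or entirely below the 4 vehicle libraries.

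Receptors and adaptors of the pathway fell more often than they rose. The gene counts that follow are to be read against the shares of all tested genes, of which 24.7% rose and 21.7% fell. Of the 18 tested members of a list of insulin and IGF receptors and substrates, 8 fell and 4 rose, with a median log2 change of -0.09. Igf1r, which encodes the receptor for IGF-1 (chromosome 7, 67952827 to 68233668, plus strand), measured 199.8, 203, 202 and 195 CPM under vehicle and 97.5, 96.4, 89.3 and 92.0 CPM under insulin. The insulin libraries lay far below the lowest vehicle library, at a mean of 46.9% of the vehicle mean, and the log2 change was -1.09 (SE 0.0395, edgeR adjusted p = 9.06e-25). Irs2, an adaptor whose gene is a known FOXO target, measured 377, 405, 417 and 389.9 CPM under vehicle and 324, 364, 345 and 367 CPM under insulin. Every insulin library was below every vehicle library, yet the change was small, -0.18 (SE 0.0381, edgeR adjusted p = 0.000115). Irs1 fell (log2 change -0.40), but 30.9% of its exon length is shared with another measured gene, so its value is uncertain. Gab2, a docking protein of the same receptors, fell from 63.1 ± 5.04 to 41.8 ± 1.96 CPM (SD, n = 4; log2 change -0.60, SE 0.0604, edgeR adjusted p = 5.82e-11).

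Among IGF ligands and binding proteins, 5 of 13 rose and 3 fell. Pappa, a protease that cleaves IGF binding proteins and so frees IGF (chromosome 4, 65124174 to 65357509, plus strand), measured 26.1, 26.8, 24.7 and 23.6 CPM under vehicle and 5.96, 6.32, 5.47 and 7.46 CPM under insulin. It fell to 24.9% of its vehicle mean, with no overlap (log2 change -2.004, SE 0.0914, edgeR adjusted p = 1.58e-21). Stc1, a secreted inhibitor of that protease, measured 1.15, 0.936, 1.01 and 1.49 CPM under vehicle and 3.27, 4.03, 3.69 and 4.51 CPM under insulin, so it rose in every library (log2 change 1.75, SE 0.197, edgeR adjusted p = 7.54e-10) though its level stayed low. Igfbp5 and Igfbp3, which bind IGF in the medium, rose by 0.59 and 0.56 on the log2 scale from 376 and 436 CPM. Igf1, the ligand itself, fell from 38.7 ± 2.44 to 29.2 ± 1.70 CPM (SD, n = 4; log2 change -0.41, SE 0.0697, edgeR adjusted p = 4.64e-06).

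Further down, 16 of 42 genes of PI3-kinase, AKT and mTOR fell and 9 rose (median -0.04), and 14 of 31 genes of mTORC1 brakes and nutrient sensors fell and 6 rose (median -0.09). Pik3ip1, an inhibitor of PI3-kinase, measured 109, 111, 118 and 122 CPM under vehicle and 57.8, 57.05, 55.7 and 51.6 CPM under insulin. The insulin mean was 48.4% of the vehicle mean, without overlap (log2 change -1.05, SE 0.0499, edgeR adjusted p = 6.75e-21). Sesn3, a sestrin that restrains mTORC1, measured 226, 249, 232 and 235 CPM under vehicle and 105, 114, 102 and 110.4 CPM under insulin (log2 change -1.12, SE 0.0437, edgeR adjusted p = 7.1e-24). Pik3ca, a catalytic subunit of PI3-kinase, fell from 113 ± 2.79 to 73.3 ± 0.769 CPM (SD, n = 4; log2 change -0.62, SE 0.044, edgeR adjusted p = 2.2e-15). Rragd and Fnip1, which work in amino acid sensing at the lysosome, fell, with log2 changes of -1.01 and -0.73. Tsc1, a subunit of the main inhibitory complex, fell by 0.47. Not every brake fell: Ddit4, an mTORC1 inhibitor induced by stress, rose by 0.53 (SE 0.0682, edgeR adjusted p = 1.57e-08).

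FOXO factors and their known targets were mostly lower with insulin. Of 29 members tested 23 fell, 3 rose and 3 did not pass, with a median of -0.49, and the list's summed level was 3587 to 3689 CPM under vehicle and 2943 to 3019 CPM under insulin. Fbxo32 (chromosome 15, 58175879 to 58214932, minus strand) measured 46.2, 51.5, 52.1 and 47.9 CPM under vehicle and 5.91, 5.02, 6.48 and 6.99 CPM under insulin. The highest insulin library was below the lowest vehicle library by a wide margin, the mean was 12.3% of the vehicle mean, and the log2 change was -3.02 (SE 0.112, edgeR adjusted p = 2.16e-24). Ccng2, an atypical cyclin that slows the cell cycle, measured 36.3, 34.8, 38.1 and 43.3 CPM under vehicle and 13.5, 15.9, 16.4 and 15.7 CPM under insulin (log2 change -1.31, SE 0.0837, edgeR adjusted p = 1.06e-16). Mxi1, which opposes MYC, measured 39.7, 44.1, 37.6 and 42.1 CPM under vehicle and 16.4, 17.3, 20.2 and 15.5 CPM under insulin (log2 change -1.24, SE 0.0851, edgeR adjusted p = 1e-15). In both genes the groups did not overlap. Pdk4, the kinase that turns off pyruvate dehydrogenase, was low under vehicle, at 11.3, 11.2, 10.6 and 11.4 CPM, and lower under insulin, at 4.03, 2.91, 2.80 and 3.58 CPM (log2 change -1.73, SE 0.154, edgeR adjusted p = 1.9e-12).

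The genes of the factors themselves moved in different directions. Foxo1 measured 39.8 ± 2.82 CPM under vehicle and 42.8 ± 0.831 CPM under insulin (SD, n = 4) and did not pass the test (log2 change 0.11, SE 0.0581, edgeR adjusted p = 0.135). Foxo3 fell slightly (-0.16), Foxo4 fell more (-0.83), and Foxo6 rose (0.83) from a level of 1.17 CPM. Rbl2, a pocket protein of the retinoblastoma family, and Cdkn1b, the cyclin-dependent kinase inhibitor p27, fell, with log2 changes of -0.95 and -0.58.

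RefSeq windows from 250 bases before to 50 bases after the gene start (GRCm38.p6) matched 24 of the 29 FOXO list genes and 11604 of the 15599 genes tested. The FOXO core GTAAACA, on either strand, was present in 6 of the 24 (25.0%) and in 3.17% of all tested genes with a window; the longer form GTAAACAA, which contains the core, was in 4 and in 1.01%. The list was made of known targets, so this share describes the list and not these cells. The core was in 6.98% of the windows of genes that fell by more than 1.5-fold (33 of 473) and in 2.18% of those that rose by more than 1.5-fold (10 of 458), given as a description without a test. The 5 list genes with a core wholly before the start are shown with 15 bases on each side, 5′ to 3′ on the strand of the gene, with the core in capitals (as TGTTTAC where it lies on the opposite strand), because they span the range from a strong fall to no change.
Mxi1, log2 change -1.24 (chr19:53329449-53329485, plus strand): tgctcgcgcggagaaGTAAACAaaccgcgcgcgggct
Btg1, log2 change -0.61 (chr10:96616782-96616818, plus strand): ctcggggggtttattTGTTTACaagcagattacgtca
Bbc3, log2 change -0.51 (chr7:16310079-16310115, plus strand): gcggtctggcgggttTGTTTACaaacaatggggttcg
Txnip, log2 change -0.49 (chr3:96557821-96557857, plus strand): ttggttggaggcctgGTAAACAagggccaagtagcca
Bcl2l11, log2 change 0.01 (chr2:128125796-128125832, plus strand): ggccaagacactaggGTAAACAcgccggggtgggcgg
The first 4 genes fell. Bcl2l11, a cell death gene, has the same core and did not pass the test (edgeR adjusted p = 0.911).

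Several of the largest falls were in genes outside the FOXO list. Ypel3, a small growth-arrest gene (chromosome 7, 126776955 to 126780514, plus strand), measured 72.5, 80.3, 86.1 and 98.0 CPM under vehicle and 19.3, 17.5, 20.6 and 15.7 CPM under insulin (log2 change -2.20, SE 0.0809, edgeR adjusted p = 1.4e-24). Crebrf, a regulator of CREB3-type factors, measured 132, 127, 121 and 132 CPM under vehicle and 25.9, 33.7, 27.2 and 29.9 CPM under insulin (log2 change -2.13, SE 0.0616, edgeR adjusted p = 9.29e-28). Klhl24, a substrate adaptor for ubiquitin ligases, measured 301, 298, 276 and 300.4 CPM under vehicle and 104, 93.1, 94.5 and 91.1 CPM under insulin (log2 change -1.62, SE 0.0428, edgeR adjusted p = 6.33e-29). For all 3 the groups were far apart. Cdo1, which begins the breakdown of cysteine to taurine, fell from 13.8 ± 0.235 to 3.46 ± 0.614 CPM (SD, n = 4; log2 change -1.995, SE 0.136, edgeR adjusted p = 7.61e-16). Tcp11l2, N4bp2l1, Cyp2j9, Nipal3 and C530044C16Rik also belonged to the 15 largest falls, with log2 changes of -1.91, -1.86, -1.54, -1.47 and -2.17. Tmem140, Cyren and Wdr45 did too, but share 37.0%, 50.8% and 24.7% of their exon length with other measured genes, and their values are uncertain.

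Most genes that start autophagy fell with insulin. In a list of autophagy initiation and phagophore growth, 19 of 23 fell and 2 rose (median -0.44). Ulk1, the kinase that starts the process (chromosome 5, 110784488 to 110810097, minus strand), measured 92.2, 105, 97.0 and 98.0 CPM under vehicle and 42.3, 43.0, 41.8 and 38.2 CPM under insulin. Its insulin mean was 42.1% of the vehicle mean, without overlap (log2 change -1.249, SE 0.0529, edgeR adjusted p = 1.2e-22). Wipi1 and Zfyve1, which bind phosphoinositides at the growing membrane, fell from 76.1 ± 2.95 to 37.2 ± 1.58 CPM and from 113 ± 5.52 to 58.2 ± 1.77 CPM (SD, n = 4; log2 changes -1.03 and -0.96). For the ATG8 family and the enzymes that conjugate it, 6 of 16 genes fell and 3 rose. Gabarapl1 and Map1lc3b, both ATG8 proteins, fell, with log2 changes of -0.65 and -0.60, and Atg4d, a protease that trims them, rose by 0.24.

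Among selective autophagy receptors and mitophagy genes 11 of 19 fell and 2 rose (median -0.19). Sqstm1, the receptor p62 for ubiquitin-tagged cargo (chromosome 11, 50199366 to 50210827, minus strand), measured 1257, 1240.4, 1326 and 1384 CPM under vehicle and 704, 662, 679 and 667 CPM under insulin. The groups were far apart (log2 change -0.94, SE 0.0446, edgeR adjusted p = 5.58e-21), with 17.3% of its exon length shared with another gene. Calcoco1 and Retreg1, receptors for parts of the endoplasmic reticulum, fell from 137 ± 5.17 to 59.1 ± 2.46 CPM and from 40.5 ± 0.712 to 19.7 ± 0.685 CPM (log2 changes -1.21 and -1.04), and Bnip3l, a mitophagy receptor, fell as well (-0.60).

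Lysosome genes fell by small amounts: 34 of 45 fell, 1 rose and none changed by more than 1.5-fold, with a median of -0.17. The summed level of the 45 genes was 13105 to 13478 CPM under vehicle and 11475 to 12192 CPM under insulin. Atp6v1b2, a subunit of the proton pump, fell from 240.5 ± 5.31 to 174 ± 6.75 CPM (log2 change -0.47, SE 0.0348, edgeR adjusted p = 1.31e-14), and Npc1, which moves cholesterol out of the lysosome, fell by 0.45 on the log2 scale. Tfeb, the factor that drives many lysosome genes, did not pass the test at 16.5 ± 1.55 CPM under vehicle and 16.8 ± 0.946 CPM under insulin (log2 change 0.03, SE 0.0906, edgeR adjusted p = 0.841), and in its family 2 of 6 genes fell and none rose. Markers of microglia, cells rich in lysosomes, were detected: the 16 markers summed to 1820 to 1855 CPM under vehicle and 1551 to 1586 CPM under insulin, 14 of 16 fell and none rose (median -0.20), and all 16 had counts. Their part in the lysosome result was not tested, and in bulk RNA fewer cells of a type and less RNA per cell cannot be told apart.

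The E-box CACGTG lies in many lysosome gene promoters and forms the centre of the longer CLEAR palindrome. It was found in 17 of the 35 lysosome genes with a window (48.6%), against 11.2% of all tested genes with one. The palindrome, CACGTG extended on both sides, was in 1 of them and in 0.698% of all. That gene was Cln3, a lysosomal membrane protein, which fell by 0.26 (SE 0.0603, edgeR adjusted p = 0.000412). It is shown because it alone holds the full palindrome, in capitals.
Cln3 (chr7:126583335-126583374, minus strand): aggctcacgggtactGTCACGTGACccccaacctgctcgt

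Genes of the whole cholesterol synthesis pathway rose. All 21 enzymes tested rose, 19 of them by more than 1.5-fold, with a median log2 change of 1.20, and in 20 of the 21 the groups did not overlap. Together they measured 2395 to 2652 CPM under vehicle and 5601 to 5727 CPM under insulin. At the entry, Hmgcs1, which makes HMG-CoA (chromosome 13, 119690379 to 119708260, plus strand), measured 678, 654, 699 and 729.6 CPM under vehicle and 1571, 1496, 1527 and 1503 CPM under insulin. The groups were far apart, and the insulin mean was 221% of the vehicle mean (log2 change 1.14, SE 0.0361, edgeR adjusted p = 7.58e-27).

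The isoprenoid and sterol steps that follow rose too. Idi1, which interconverts the isoprenoid units, measured 52.1, 40.2, 44.5 and 52.4 CPM under vehicle and 129, 128, 129 and 128 CPM under insulin (log2 change 1.44, SE 0.0551, edgeR adjusted p = 3.72e-24). Lss, which closes the sterol rings, measured 111, 109, 119 and 124 CPM under vehicle and 296, 320.1, 304 and 310.3 CPM under insulin (log2 change 1.41, SE 0.0429, edgeR adjusted p = 3.49e-27). Hsd17b7, a sterol ketone reductase (chromosome 1, 169949535 to 169969241, minus strand), measured 54.2, 47.5, 51.1 and 51.7 CPM under vehicle and 163, 175, 165 and 170.1 CPM under insulin. It had the largest rise of the pathway, to 329% of the vehicle mean, without overlap (log2 change 1.72, SE 0.0537, edgeR adjusted p = 5.91e-27). The smallest rises were those of Ebp, a sterol isomerase (0.45), and Ggps1, which leads away to geranylgeranyl groups (0.15, SE 0.0595, edgeR adjusted p = 0.0377), whose groups overlapped. Ggps1 passes by a narrow margin. It lost its call without insulin library 1, 2 or 4 or vehicle library 2, 3 or 4 (log2 changes 0.11 to 0.15, edgeR adjusted p = 0.0594 to 0.152). With all libraries kept, the call was lost with other scalings, without a filter and with a filter on mean CPM (edgeR adjusted p = 0.0513 to 0.107). The call was also lost in a fit of only the libraries compared (edgeR adjusted p = 0.0627) and with DESeq2 (adjusted p = 0.0575).

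The promoter of Hmgcs1 is shown because it is the only one of the 16 enzyme windows that holds the sterol element TCACNCCAC (6.25%, against 1.43% of all tested genes with a window). The element is in capitals.
Hmgcs1 (chr13:119690199-119690237, plus strand): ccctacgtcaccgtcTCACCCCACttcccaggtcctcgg
A lack of these letters in a window of this length says nothing about the factor.

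**Figure D3:**
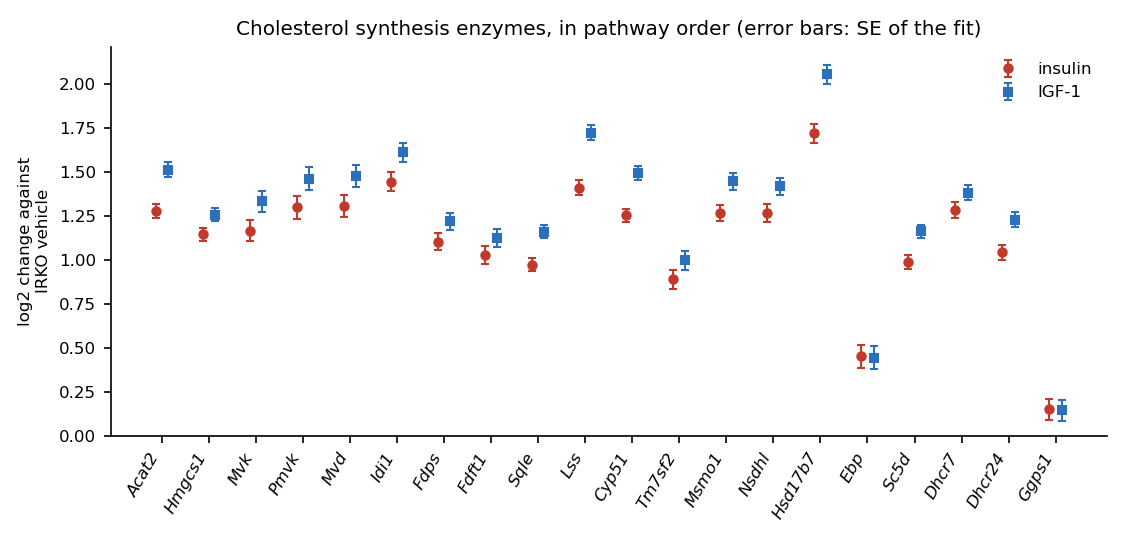
Log2 change against IRKO vehicle (vertical axis; error bars, SE of the fit) of 20 cholesterol synthesis enzymes in the order of the pathway, with Ggps1, a side branch, last; insulin red circles, IGF-1 blue squares, both against the same 4 vehicle libraries. All values lie above 0, with Hsd17b7 highest at 1.72 under insulin and Ggps1 lowest at 0.15.

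Sterol regulators and carriers were split. Srebf1 and Srebf2, which encode the SREBP factors, rose from 159.6 ± 5.06 to 249 ± 3.73 CPM and from 336 ± 6.96 to 426 ± 14.7 CPM (log2 changes 0.64 and 0.34). Insig1, a sterol-regulated retention protein, rose by 1.00, and its relative Insig2 fell by 0.66. Of 21 genes of cholesterol uptake and export 4 rose and 10 fell. Lrp8 and Stard4, a lipoprotein receptor and a sterol carrier, rose by 1.00 and 1.04. Abca1, which exports cholesterol to lipoproteins, went the other way, with 1255, 1299.5, 1286 and 1269 CPM under vehicle and 728, 777, 689 and 794 CPM under insulin (log2 change -0.77, SE 0.0408, edgeR adjusted p = 2.03e-19).

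Fatty acid synthesis and desaturation rose in 18 of 22 genes and fell in 2 (median 0.49), with a summed level of 5139 to 5367 CPM under vehicle and 8899.6 to 9009 CPM under insulin. Scd2, the main brain desaturase, was among the 5 most abundant genes that rose, with 1946, 2005, 2018 and 1994 CPM under vehicle and 3585, 3579.7, 3626 and 3591 CPM under insulin. Its 4 insulin libraries lay within a narrow band (log2 change 0.85, SE 0.0308, edgeR adjusted p = 8.97e-25). Scd1 rose from 413 ± 15.8 to 887 ± 4.48 CPM and Fasn, the fatty acid synthase, from 416 ± 20.5 to 837 ± 33.4 CPM (SD, n = 4; log2 changes 1.10 and 1.01), and Acaca, which makes malonyl-CoA, rose by 0.99. Mfsd2a, a carrier of omega-3 lysolipids, measured 28.6, 27.6, 31.4 and 27.3 CPM under vehicle and 89.6, 94.7, 96.2 and 94.2 CPM under insulin, so all insulin libraries were above all vehicle libraries (log2 change 1.70, SE 0.0532, edgeR adjusted p = 5.91e-27). In triglyceride storage and lipolysis 6 of 20 rose and 5 fell. Pnpla3, a lipid droplet enzyme, measured 4.60, 2.44, 3.68 and 2.99 CPM under vehicle and 10.4, 11.1, 9.16 and 8.32 CPM under insulin (log2 change 1.51, SE 0.138, edgeR adjusted p = 4.22e-12), and Plin3, a droplet coat protein, fell by 0.81. Of 22 genes of fatty acid oxidation 3 rose and 5 fell; Cpt1a, which admits fatty acids to mitochondria, fell from 129 ± 5.78 to 93.0 ± 2.34 CPM (log2 change -0.47, SE 0.0451, edgeR adjusted p = 1.46e-11).

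Carbohydrate genes changed modestly. Of 21 glycolysis genes 12 rose and 3 fell (median 0.12); Ldha, lactate dehydrogenase, rose by 0.42, and Pfkp, a phosphofructokinase, fell by 0.47. Slc2a1, the main astrocyte glucose carrier, did not pass the test (0.04, SE 0.0451, edgeR adjusted p = 0.45). Slc16a1, a lactate and pyruvate carrier, rose from 269.8 ± 8.61 to 379 ± 9.42 CPM (0.49), and Pdk2 fell from 55.1 ± 5.77 to 30.3 ± 1.55 CPM (-0.86), as Pdk4 did above, while Pdp2, the opposing phosphatase, rose by 0.77. In glycogen metabolism 7 of 19 rose and 1 fell, among them Ppp1r3c, a glycogen-targeting subunit, and Gys1, glycogen synthase (0.78 and 0.27). Of 12 pentose phosphate and NADPH genes 9 rose and none fell, led by Tkt, transketolase, from 265 ± 15.7 to 369 ± 19.5 CPM (0.48).

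Serine and one-carbon genes rose in 15 of 20 and fell in 4 (median 0.36). Psat1 and Phgdh, enzymes of serine synthesis, rose from 56.4 ± 2.34 to 94.7 ± 0.943 CPM and from 50.7 ± 2.62 to 73.6 ± 5.87 CPM, and Mat2a, which makes S-adenosylmethionine, from 191 ± 7.26 to 326 ± 12.4 CPM (SD, n = 4; log2 changes 0.75, 0.54 and 0.77). In purine and pyrimidine synthesis 13 of 23 rose and 3 fell, with Impdh2, for guanine nucleotides, at 0.75. Amino acid carriers were mixed, with 6 of 20 up and 8 down: Slc7a5, a carrier of large neutral amino acids, rose by 0.65, and Slc43a2 fell by 0.63. In polyamine synthesis 7 of 12 rose and 1 fell. Srm, spermidine synthase (chromosome 4, 148591503 to 148594993, plus strand), measured 32.1, 30.4, 38.1 and 32.3 CPM under vehicle and 81.0, 79.2, 93.0 and 78.6 CPM under insulin (log2 change 1.32, SE 0.0605, edgeR adjusted p = 1.82e-21); insulin library 3 lay above the other 3, and all 4 lay above the vehicle libraries.

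Targets of ATF4, the factor of the amino acid response, did not move together: 14 of 28 rose, 6 fell and 8 did not pass (median 0.16). The element TGATGNAA, on either strand, was in 7 of 23 windows of the list (30.4%), against 2.77% of all tested genes with a window, again in a list of known targets. A gene that rose, a gene that fell and a gene that did not pass are shown, with the element in capitals.
Asns, asparagine synthetase, log2 change 0.24 (chr6:7693210-7693247, minus strand): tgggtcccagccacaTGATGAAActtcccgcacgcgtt
Pck2, a mitochondrial gluconeogenic enzyme, log2 change -0.56 (chr14:55540148-55540185, plus strand): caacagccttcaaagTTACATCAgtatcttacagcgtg
Chac1, a glutathione-degrading enzyme, log2 change -0.09 (chr2:119351034-119351071, plus strand): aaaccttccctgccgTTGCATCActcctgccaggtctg
The edgeR adjusted p-values were 0.0274, 4.42e-09 and 0.754, and Asns lost its call without insulin library 1, 3 or 4 or vehicle library 1 or 2 (log2 changes 0.18 to 0.23, adjusted p = 0.0516 to 0.131). Ppp1r15a, which restarts translation after stress, fell by 0.68.

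Most of the genes listed for making proteins rose. In ribosome biogenesis 38 of 39 rose and none fell (median 0.53), and the list summed to 2454 to 2468 CPM under vehicle and 3462 to 3591 CPM under insulin. Rrp12 and Ddx21, which act in ribosome assembly, rose from 26.6 ± 1.65 to 49.8 ± 1.64 CPM and from 132 ± 3.55 to 215 ± 3.45 CPM (SD, n = 4; log2 changes 0.90 and 0.71). Of 37 cytosolic ribosomal protein genes 36 rose (median 0.27, range 0.12 to 0.43), and of 22 aminoacyl-tRNA synthetases 22 rose (median 0.30). Translation factors rose in 29 of 35 and fell in 2, with Eif4a1 and Eif4e, of the cap-binding complex, at 0.54 and 0.53. Of 26 genes of RNA polymerase I and III 15 rose and 4 fell. Polr1a, the large subunit of polymerase I, rose by 0.69, and Maf1, a repressor of polymerase III, fell by 0.67.

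Mitochondrial and quality-control genes moved the same way. Mitochondrial ribosomal proteins rose in 25 of 32, import and chaperone genes in 19 of 22, and nuclear oxidative phosphorylation genes in 20 of 27, and none of these lists had a member that fell (medians 0.31, 0.37 and 0.20). Hspd1, the mitochondrial chaperonin, rose from 198 ± 7.89 to 309 ± 13.9 CPM (SD, n = 4; 0.64). Proteasome genes rose in 31 of 33 and heat shock and chaperonin genes in 23 of 27, with none down (medians 0.24 and 0.34). Hspa8, a constitutive chaperone, rose from 1126 ± 28.9 to 1897 ± 88.7 CPM (0.75). In the unfolded protein response 16 of 22 rose and 2 fell (median 0.35): Hspa5, the main chaperone of the endoplasmic reticulum, rose from 709.9 ± 16.3 to 1206 ± 22.7 CPM (0.76), and Creld2 and Manf rose by 1.00 and 0.81. In nuclear transport 14 of 17 rose and 1 fell.

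All 13 tubulin genes tested rose, 10 of them by more than 1.5-fold, without overlap between groups in any (median 0.77). Of these, 3 (Tuba1a, Tuba1b and Tuba4a) share over 20% of exon length with another measured gene, so their values are uncertain. Their summed level was 2346 to 2530.0 CPM under vehicle and 4091 to 4561 CPM under insulin. Tuba8 (chromosome 6, 121210696 to 121226854, plus strand) measured 3.78, 5.51, 2.72 and 4.71 CPM under vehicle and 17.6, 16.7, 16.0 and 17.6 CPM under insulin (log2 change 2.02, SE 0.118, edgeR adjusted p = 6.19e-18). Tubb3, best known from neurons, measured 4.27, 4.99, 3.47 and 4.32 CPM under vehicle and 12.5, 12.7, 11.5 and 10.8 CPM under insulin (log2 change 1.47, SE 0.126, edgeR adjusted p = 6e-13). The more abundant Tubb2a, Tubb2b and Tubb6 rose by 1.15, 0.89 and 1.06 on the log2 scale. Of 8 neuron markers tested, a list that also holds Tubb3, 2 rose and 2 fell, and the 14 neuron markers, Tubb3 included and with Slc17a6 at 0 under vehicle, summed to 138 to 149 CPM under vehicle and 154 to 159 CPM under insulin.

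Not all of the largest rises belonged to a list. Trmt61a, a tRNA methyltransferase, measured 12.9, 11.5, 15.04 and 13.9 CPM under vehicle and 37.4, 34.6, 32.7 and 31.5 CPM under insulin (log2 change 1.35, SE 0.0757, edgeR adjusted p = 1.38e-18), without overlap. Mvd, of the cholesterol pathway, rose from 44.5 ± 3.73 to 109.9 ± 4.02 CPM (1.31). Ngef, a guanine nucleotide exchange factor, Prr7, Rab27b, a small GTPase of vesicle release, and Snhg4, a small nucleolar RNA host gene, rose from mean levels of 2.72, 4.01, 5.28 and 3.13 CPM by 1.61, 1.49, 1.31 and 1.31 on the log2 scale.

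**Figure D4:**
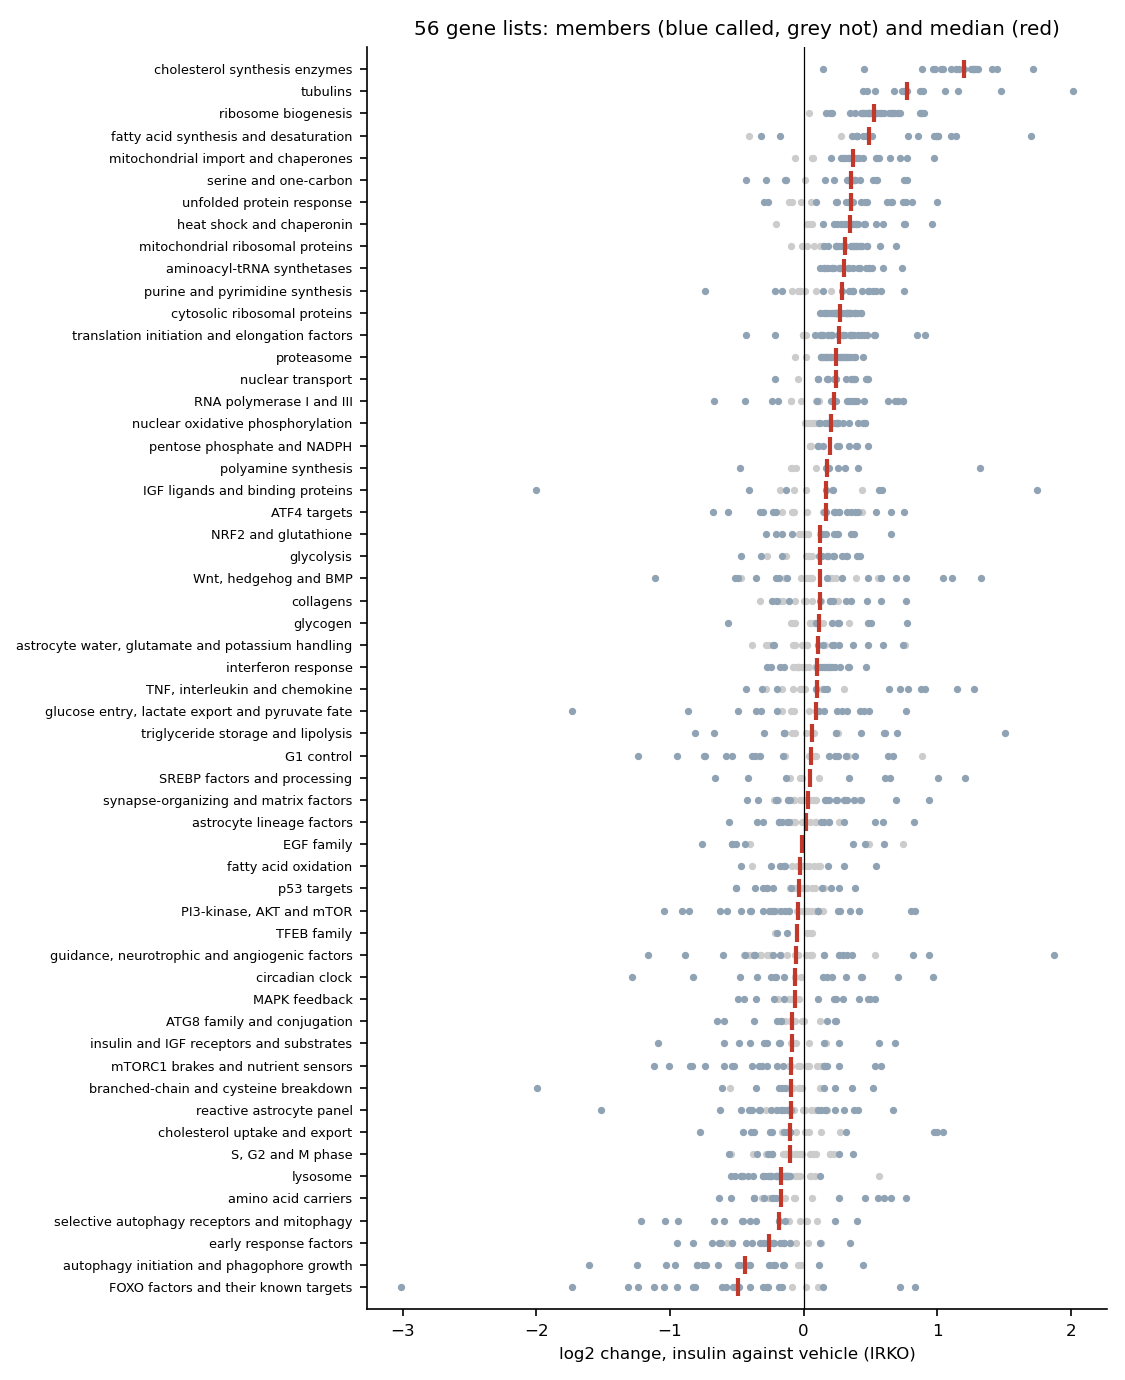
Log2 change of insulin against vehicle in IRKO astrocytes (horizontal axis) for the tested members of 56 gene lists, 1 row per list, sorted by the median (red bar); called members blue, others grey. Cholesterol synthesis enzymes have the highest median, 1.20, and FOXO factors and targets the lowest, -0.49.

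Early response factors were lower at 6 h, with 21 of 31 down and 2 up (median -0.26); Mafk fell from 48.4 ± 3.35 to 27.2 ± 1.09 CPM and Myc from 41.1 ± 1.76 to 31.5 ± 2.13 CPM (SD, n = 4; -0.83 and -0.39). MAPK feedback genes were mixed, 8 of 19 up and 5 down, with Spry4, an inhibitor of receptor signalling, at 0.49. Of 12 EGF family genes 5 fell and 3 rose, and the receptor genes Egfr and Erbb2 fell (log2 changes -0.44 and -0.54). In the clock, 8 of 19 rose and 8 fell. Rora, a nuclear receptor that activates Arntl, measured 60.1, 60.7, 58.4 and 66.2 CPM under vehicle and 24.3, 25.4, 23.4 and 27.5 CPM under insulin (log2 change -1.29, SE 0.0619, edgeR adjusted p = 9.11e-21). Nr1d2, a repressor of Arntl, measured 125, 127, 133 and 125 CPM under vehicle and 73.7, 73.5, 68.9 and 71.5 CPM under insulin (log2 change -0.83, SE 0.04, edgeR adjusted p = 1.07e-20). Both fell without overlap, and Arntl, which encodes BMAL1, rose by 0.70.

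Secreted signals went both ways. Apln, the vascular peptide apelin (chromosome X, 48025146 to 48034853, minus strand), measured 7.56, 8.89, 8.26 and 8.97 CPM under vehicle and 30.8, 29.1, 32.5 and 31.1 CPM under insulin (log2 change 1.87, SE 0.078, edgeR adjusted p = 6.95e-23). Vegfa, the endothelial growth factor, measured 49.8, 51.3, 52.7 and 54.1 CPM under vehicle and 99.5, 95.9, 86.7 and 85.3 CPM under insulin (log2 change 0.82, SE 0.0526, edgeR adjusted p = 1.12e-16). Ntn4, a netrin of basement membranes, fell from 95.9 ± 5.75 to 42.8 ± 1.83 CPM (-1.17). Shh, sonic hedgehog, measured 6.13, 5.67, 7.14 and 4.10 CPM under vehicle and 11.1, 12.3, 12.5 and 13.9 CPM under insulin (log2 change 1.11, SE 0.13, edgeR adjusted p = 2.42e-09), and Bmp4, which promotes astrocyte differentiation, 7.45, 7.38, 6.72 and 5.92 CPM under vehicle and 3.54, 3.04, 2.44 and 3.64 CPM under insulin (log2 change -1.11, SE 0.155, edgeR adjusted p = 1.1e-07). The groups did not overlap for either. Wnt7a and Wnt7b rose by 0.77 and 1.04. Of 24 genes of TNF, interleukin and chemokine signalling 10 rose and 3 fell, with Tnfrsf12a, the TWEAK receptor, and Ccl7, a monocyte chemokine, at 1.15 and 0.78, and Il6st, the shared interleukin-6 receptor subunit, at -0.43.

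Cell cycle genes were mixed at the G1 stage, and most of those beyond it did not pass. Ccnd2, a D-type cyclin, rose from 309 ± 8.23 to 480.1 ± 9.11 CPM (SD, n = 4; 0.63). Of 28 G1 genes 10 fell (35.7%) and 7 rose (25.0%, near the 24.7% of all genes tested), with a median of 0.05. Of 30 genes of S, G2 and M phase 23 did not pass, 5 fell and 2 rose; Mki67, a proliferation marker, measured 41.8 ± 4.12 and 38.2 ± 1.503 CPM and missed the threshold (-0.13, SE 0.07, edgeR adjusted p = 0.126), which it passed without vehicle library 4 (log2 change -0.20, adjusted p = 0.0189).

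Several other lists were mixed. In the interferon response 14 of 31 rose and 4 fell, with Stat2, a signal transducer of interferon, at 0.33 and Gbp2 at -0.24. Of 21 genes of NRF2 and glutathione 9 rose and 4 fell, with Gss, glutathione synthetase, at 0.65 and Hmox1, heme oxygenase, at -0.28. Of 23 collagens 9 rose and 3 fell, with Col5a1 at 0.58, and of 34 synapse-organizing and matrix factors 12 rose and 6 fell, with the proteases Adamts1 and Adamts9 at 0.69 and 0.94. Of 22 p53 targets 8 fell and 4 rose, and of 20 genes of branched-chain amino acid and cysteine breakdown 6 fell and 4 rose, with Bckdha, of the branched-chain dehydrogenase, at -0.61.

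Astrocyte genes were abundant in all 8 libraries. The 15 astrocyte markers summed to 8955 to 9894 CPM under vehicle and 8462 to 8870 CPM under insulin, and of 14 tested 5 rose and 5 fell. Gfap, the glial filament, measured 619.6, 729, 650.0 and 688 CPM under vehicle and 735, 723, 742 and 701 CPM under insulin. Those values overlapped, and the change was near the threshold (log2 change 0.11, SE 0.0449, edgeR adjusted p = 0.0405); the call was lost without insulin library 1, 2 or 3 or vehicle library 1, 3 or 4 (log2 changes 0.06 to 0.11, adjusted p = 0.068 to 0.297), and with all libraries kept it was lost with DESeq2, other scalings, a filter on mean CPM and a fit of only the libraries compared (adjusted p = 0.0600 to 0.0702). Aqp4, the water channel, measured 1192, 1201, 1151 and 1222 CPM under vehicle and 1312, 1303, 1223 and 1295 CPM under insulin, which did not overlap by a narrow margin (log2 change 0.11, SE 0.0343, edgeR adjusted p = 0.00928), and the call was lost without vehicle library 3 (log2 change 0.08, adjusted p = 0.0707). The Aqp4 call was also narrowly lost without a filter on low counts (log2 change 0.09, edgeR adjusted p = 0.0504). Leaving out vehicle library 1 and insulin library 4 together lost it too (log2 change 0.09, edgeR adjusted p = 0.0547). Kcnj10, the potassium channel Kir4.1, rose from 221 ± 16.5 to 308 ± 2.98 CPM (0.48), and Slc1a3, a glutamate carrier, fell from 1563 ± 23.97 to 1336 ± 27.6 CPM (-0.23). Slc1a2, the other main glutamate carrier, did not pass in the main fit (-0.08). It passed without insulin library 4 or vehicle library 4 (log2 change -0.11, edgeR adjusted p = 0.028 and 0.0263). It also passed narrowly with scaling by library size alone (log2 change -0.09, edgeR adjusted p = 0.0497). Without vehicle library 1 and insulin library 4 together it passed too (log2 change -0.11, edgeR adjusted p = 0.0496). Among lineage factors Olig2 rose (0.54) and Zbtb20 fell (-0.55). Of 37 genes of a reactive astrocyte panel 17 fell and 9 rose (median -0.09), with Osmr, the oncostatin M receptor, down from 715 ± 37.2 to 517 ± 15.7 CPM (-0.47).

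Several of the most abundant genes called changed by small amounts. C3, complement component 3, measured 6249, 6589, 6332 and 6184 CPM under vehicle and 5865, 6171, 5779 and 5969.7 CPM under insulin, and fell by 0.09 on the log2 scale (edgeR adjusted p = 0.0243), a call lost without vehicle library 2 (log2 change -0.08, adjusted p = 0.0782). Apoe, the main astrocyte lipoprotein, measured 3918, 4453, 4565 and 4719 CPM under vehicle and 3829.9, 3665, 3782 and 3516 CPM under insulin (log2 change -0.26, SE 0.0504, edgeR adjusted p = 5.34e-05). In both genes the insulin libraries lay below the lowest vehicle library. Lyz2, a myeloid lysozyme, and Vim, an intermediate filament, fell, with log2 changes of -0.15 and -0.11, and Vcam1, an adhesion molecule, fell by 0.28; the call of Vim was lost without insulin library 2 (log2 change -0.09, adjusted p = 0.0754). Lcn2, lipocalin 2, measured 2522, 2218, 2461 and 2537 CPM under vehicle and 2602, 2568, 2779.9 and 3009.9 CPM under insulin and rose by 0.17, and Eef1a1, an elongation factor, by 0.12. The call of Lcn2 was lost without insulin library 3 or 4 or vehicle library 2 or 3 (log2 changes 0.12 to 0.17, adjusted p = 0.0556 to 0.171), and with DESeq2 (adjusted p = 0.127). Gm23935 and Lars2 also rose by the test, but their levels varied widely between libraries of a group, with 1678 to 3629 CPM under vehicle and 2187 to 4360.3 CPM under insulin for Gm23935. The call of Gm23935 was lost without insulin library 2 or vehicle library 4 (log2 change 0.46, edgeR adjusted p = 0.0538 and 0.0537). That of Lars2 was lost without insulin library 4 or vehicle library 2, 3 or 4 (log2 changes 0.42 to 0.50, edgeR adjusted p = 0.0591 to 0.0939). Both calls were lost with DESeq2 (adjusted p = 0.0706 for Gm23935 and 0.0962 for Lars2). Of the markers of other cell types, those of oligodendrocyte lineage rose in 2 of 8 (Olig1 by 0.69, and Olig2) and fell in 2, those of endothelium fell in 1 of 5, those of fibroblasts and mural cells rose in 2 of 10 and fell in 1, and none of 9 ependymal markers passed.

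The knockout allows the insulin response to be compared between astrocytes with and without Cre. The difference between the IRKO and the IRflox response was tested directly, over vehicle and insulin libraries that the genotypes do not share, and no gene passed at an adjusted p under 0.05 in edgeR (0%); 838 genes had an unadjusted p under 0.05 (5.37%), and DESeq2 called none. Over 12086 genes with a mean log2 CPM of at least 2, the log2 changes in the genotypes had a Pearson correlation of 0.931 across genes, which are not independent replicates, and a ratio of their root mean squares of 0.997. Over all 15599 genes tested the correlation was 0.767 and the ratio 0.973. Of the 3852 genes that rose in IRKO 3116 (80.9%) rose in IRflox, which is 82.0% of the 3798 (24.3%) that rose there, and of the 3387 that fell 2604 (76.9%) fell in IRflox, 78.1% of the 3333 (21.4%) that fell there. A p that misses the threshold does not show equality. Medians of the lists were close in IRflox, at 1.23 for cholesterol synthesis enzymes, -0.53 for the FOXO list, -0.42 for autophagy initiation and 0.56 for ribosome biogenesis. The 95% interval of the difference lay within 1.5-fold either way for 11486 of 15599 genes (73.6%). Among the 1351 genes called past 1.5-fold in IRKO, the interval lay within 1.5-fold for 717 (53.1%).

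Fbxo32 measured 44.0, 45.7, 40.2 and 45.3 CPM under vehicle and 5.21, 4.14, 5.94 and 3.54 CPM under insulin in IRflox, a log2 change of -3.22 beside -3.02 in IRKO, and the difference of 0.21 had a 95% interval of -0.15 to 0.57. For Ulk1 the changes were -1.36 in IRflox and -1.249 in IRKO (interval of the difference -0.04 to 0.26), and for Hmgcs1 1.15 and 1.14 (interval -0.11 to 0.09). Insr itself changed by -0.31 in IRflox and -0.48 in IRKO (interval -0.33 to -0.01, edgeR adjusted p = 0.893). Cdo1 and Vegfa differed by -0.48 and 0.28 in the direction of a larger IRKO change, and neither passed (adjusted p = 0.884 and 0.727). Their 95% intervals were -0.88 to -0.08 and 0.13 to 0.43 and left out 0, but these intervals are not adjusted for the number of genes tested. The lowest p-values for a smaller or lower IRKO value belonged to Zfyve16, Unc5c, Fgl2, Marchf1 and Nrg1, and for a higher one to Gm23935, Grin3b, Sirt6, Mir6236 and Col4a3bp, with a lowest adjusted p of 0.276. Single libraries and the filter on low counts decided whether any gene passed. Without the filter 19 genes passed with all libraries kept, among them Gm23935, Mir6236, Grin3b and Unc5c. Without IRKO vehicle library 1, 4 genes passed, all with a higher IRKO response: Gm23935 (1.52, adjusted p = 0.00152), Lars2 (1.43, adjusted p = 0.00202), Gm24270 (1.88, adjusted p = 0.0188) and Mir6236 (1.46, adjusted p = 0.00979), and the same 4 passed when insulin library 4 was left out too. Gm23935 passed without IRKO insulin library 1 or IRKO vehicle library 1 (log2 changes 1.37 to 1.52, adjusted p = 0.00152 to 0.0443), and Unc5c without IRflox vehicle library 1 (log2 change -0.66, adjusted p = 0.0209). Unc5c, a netrin receptor, measured 34.7, 25.6, 26.7 and 27.6 CPM and 25.3, 23.1, 25.6 and 22.5 CPM under vehicle and insulin in IRflox, and 23.1, 23.9, 22.4 and 22.97 CPM and 14.1, 15.3, 10.2 and 12.9 CPM in IRKO.

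**Figure D5:**
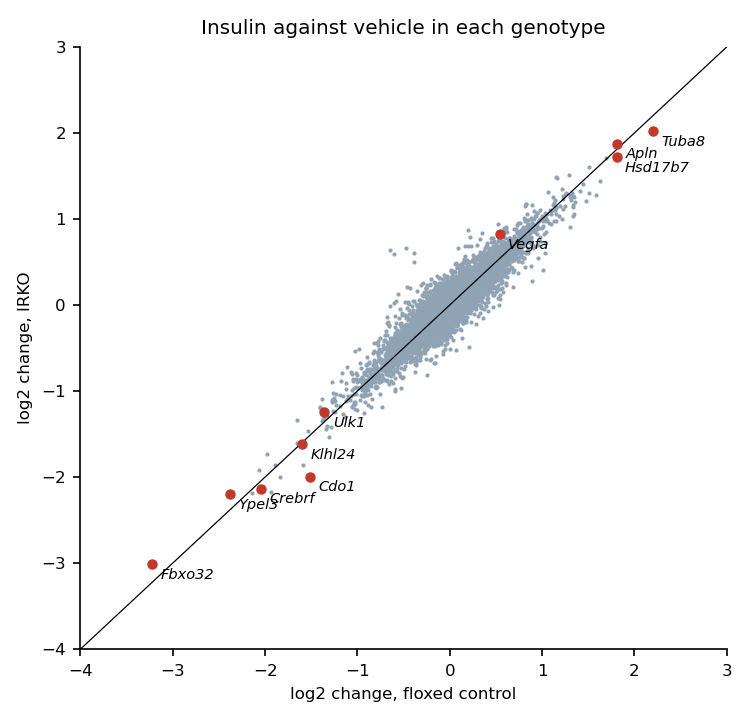
Log2 change of insulin against vehicle in floxed control (horizontal axis) and IRKO astrocytes (vertical axis) for the 12086 genes with a mean log2 CPM of at least 2; the line marks equal change and red points are named genes. Points lie around the line, from Fbxo32 (-3.22 and -3.02) to Tuba8 (2.20 and 2.02).

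Insulin and IGF-1 at the same dose and time were compared directly in IRKO astrocytes. Their levels differed in 417 genes (2.67%): 166 were higher (1.06%) and 251 lower (1.61%) with insulin, and 9 (0.0577%) and 10 (0.0641%) of these passed 1.5-fold. The 95% interval of the difference lay within 1.5-fold either way for 12525 genes (80.3%). Among the 1351 genes that insulin changed past 1.5-fold in IRKO, the interval lay within 1.5-fold for 886 (65.6%). Of the cholesterol synthesis enzymes 9 of 21 were lower with insulin than with IGF-1 and none higher. Hsd17b7 measured 163, 175, 165 and 170.1 CPM with insulin and 210.4, 217, 212 and 209.7 CPM with IGF-1, without overlap (log2 difference -0.33, SE 0.049, edgeR adjusted p = 2.76e-05). Lss and Cyp51 differed by -0.31 and -0.24. Of 22 fatty acid synthesis genes 7 were lower with insulin, of 19 MAPK feedback genes 8, of 37 reactive panel genes 6 and of 24 TNF, interleukin and chemokine genes 5. Igf1r was also lower with insulin (-0.15, adjusted p = 0.0394). Higher with insulin were 4 of 29 FOXO list genes, 3 of 19 clock genes and 3 of 22 p53 targets. So were 3 of 21 genes of astrocyte water, glutamate and potassium handling and 3 of 24 lineage factors, of which 1 other was lower. Pik3ip1, Nr1d2 and Aqp4 were higher by 0.35, 0.25 and 0.19 (edgeR adjusted p = 6.88e-05, 0.00018 and 0.000459).

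The largest differences between the hormones were in genes of low or moderate level. Ereg, the EGF receptor ligand epiregulin, measured 2.03, 2.49, 2.03 and 2.66 CPM with vehicle, 3.44, 3.91, 2.97 and 3.70 CPM with insulin and 7.63, 5.43, 5.69 and 6.97 CPM with IGF-1. All insulin libraries were below all IGF-1 libraries (log2 difference -0.88, SE 0.166, edgeR adjusted p = 0.000855). Tnfsf11, the cytokine RANKL, measured 2.85, 2.703, 3.41 and 2.16 CPM with vehicle, 5.15, 4.96, 4.70 and 6.13 CPM with insulin and 8.38, 7.61, 8.71 and 8.02 CPM with IGF-1, and differed in the same way (-0.64, adjusted p = 0.00806). Cemip, a hyaluronan-degrading protein, measured 61.2 ± 7.25 CPM with insulin, close to 62.5 ± 5.02 CPM with vehicle, and 99.5 CPM with IGF-1 (-0.70, edgeR adjusted p = 1.17e-08). Sox7, Sele, Rps29, Epb41l4aos and Ccl20 were lower with insulin, with log2 differences of -0.88, -0.77, -0.69, -0.66 and -0.63, and the Rps29 libraries spread widely within groups. Calls were lost for Sele without IGF-1 library 4 (log2 change -0.67, adjusted p = 0.0551), for Epb41l4aos without IGF-1 library 3 or insulin library 1 (log2 changes -0.61 to -0.59, adjusted p = 0.064 to 0.0751) and for Rps29 without IGF-1 library 1, 3 or 4 or insulin library 1, 2 or 3 (log2 changes -0.78 to -0.52, adjusted p = 0.0518 to 0.242). Rps29 also lost its call with DESeq2 (adjusted p = 0.221) and with a filter on mean CPM (edgeR adjusted p = 0.0525). In the other direction, Fbxo32 was higher with insulin than with IGF-1, at 5.91, 5.02, 6.48 and 6.99 CPM against 4.94, 5.05, 3.03 and 3.27 CPM (0.58, SE 0.158, adjusted p = 0.0307). These groups overlapped, and the call was lost without IGF-1 library 3 or 4 or insulin library 1, 3 or 4 (log2 changes 0.46 to 0.60, adjusted p = 0.0604 to 0.172). Tmem229a measured 19.7 CPM with vehicle, 15.2 CPM with insulin and 8.71 CPM with IGF-1 (0.80, adjusted p = 4.62e-06), and Megf6, 4930578M01Rik, Dnajc28, Ip6k3, Lrrc75b and Mro were higher with insulin by 0.69, 0.73, 0.66, 0.62, 0.53 and 0.53. Of these, Dnajc28 lost its call without IGF-1 library 2, 3 or 4 or insulin library 1 or 4 (log2 changes 0.56 to 0.67, adjusted p = 0.052 to 0.0993), Ip6k3 without IGF-1 library 1 or insulin library 3 (log2 changes 0.53 to 0.57, adjusted p = 0.0571 to 0.0792) and Mro without insulin library 3 (log2 change 0.46, adjusted p = 0.0525).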

How the data were processed

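RNA was sequenced in 24 libraries in 6 groups of 4, and groups were taken from the sample titles. The authors deposited raw read counts per gene, 1 file per library, whose lines naming no gene (3 per library) were left out; reads outside genes were 16.5 to 22.5% of reads in the 8 libraries compared, and gene counts exceed the reads in genes by 4.55 to 4.92%. Per the submitters' processing notes, mm10, R 4.0.4, DESeq2, edgeR and STAR 2.7.7a were used, in roles that are not stated. Which program counted reads, with which strand setting and annotation, is not given in the sources used here. Genes that share over 20% of exon length with another measured gene are therefore called uncertain.

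Counts of all 24 libraries were fitted together in R 4.3.3 with edgeR 4.0.16 (TMM scaling, filterByExpr with a minimum count of 10 and a total of 15, quasi-likelihood test with 18 residual degrees of freedom), with 1 mean per group, and p-values were adjusted by Benjamini-Hochberg over the 15599 genes tested at a threshold of 0.05. Standard errors and intervals come from the same fit and limma 3.58.1 is used by it; log CPM used a prior count of 2. DESeq2 1.42.0, other scalings, filters, a replicate block, a test against a 1.5-fold change and leaving out each library were alternatives. The same steps were tested on simulated counts. In these, 48 to 50 genes were changed at each fold, in the IRKO insulin group alone. All other genes had the same mean in every group, and each gene's spread followed a trend with its level. In the data 46.4% of genes were called for insulin against vehicle, so the recovered shares need not hold for the data. For insulin against vehicle they recovered 70% of genes changed 1.25-fold, 77.1% changed 1.5-fold and 86% changed 2-fold. For the difference between genotypes they recovered 46%, 68.75% and 84%, so in the simulation smaller differences were often missed. The numbers 1 to 4 showed no pairing between IRKO vehicle and insulin libraries: the correlations of same-numbered deviations were -0.10, 0.10, 0.01 and -0.05. Those of other pairs ran from -0.11 to 0.19. Such correlations cannot exclude a shared culture or litter. No pair of libraries of a group agreed within sampling noise (chi-square per gene 2.17 to 6.86).

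The libraries to compare and 64 gene lists (1421 different genes, of which 56 lists are pathways and 8 cell type markers) were chosen with earlier results of these data known. Genes were named by a rule: the 15 largest rises and falls above a mean log2 CPM of 2 whose groups did not overlap, up to 4 genes of lowest p in each list, the 5 most abundant called each way, the extremes of the other comparisons, and a fixed set with Insr, Igf1r, Foxo1, Ulk1 and Alb. Acaca, Asns, Bcl2l11, Bmp4, Btg1, Ccng2, Chac1, Cln3, Ddit4, Ebp, Foxo4, Foxo6, Ggps1, Igf1, Mki67, Mxi1, Pck2, Slc1a2, Slc2a1, Tsc1 and Txnip, and Lars2 and Gm24270 in the genotype comparison, fall outside it and were chosen after their values were seen. Gene coordinates are those of GENCODE M21 on mm10, and promoter windows those of RefSeq on GRCm38.p6. Some genes are not reported here.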

Additional observations from a re-analysis of the deposited data

Results flagged for a closer look

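Groups of 4 libraries were examined over 49 genes and over total reads, the share of reads outside genes and the total of gene counts. In 3 of these 104 groups, 1 library lay apart from the other 3, with a gap to its nearest neighbour that was most of the group's whole range. Chance gives about 1 in 20 such groups. Klhl24 was 275.7 CPM in IRKO vehicle library 3, below 297.6 to 301.4 CPM in the other vehicle libraries, and still far above all insulin libraries. Alb was 6.1998 CPM in IRKO vehicle library 4 and 0 in the other 3 vehicle libraries. Srm was 93.0 CPM in IRKO insulin library 3, against 78.6 to 81.0 CPM in the other insulin libraries.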

How the results depend on the processing

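Alternative settings for insulin against vehicle gave 6985 calls without a filter on low counts, 7253 and 7267 with other scalings, 7199 with DESeq2 and 6634 to 6925 when single libraries were left out, with 3263 to 3599 up and 3239 to 3475 down, against 7239. A test against a 1.5-fold change called 380. Without the 4 libraries with over 50 Alb counts, chosen after seeing the data, 3948 genes were called, 2029 up and 1919 down, with 1 insulin library left. The difference between genotypes gave 19 calls without a filter (12 up and 7 down, of which 8 and 3 past 1.5-fold) and 0 to 4 when single libraries were left out, of which 0 to 4 up and 0 to 1 down, all past 1.5-fold. It gave 4, all up and past 1.5-fold, without the libraries of the highest shares outside genes (vehicle 1 and insulin 4), also chosen after seeing the data. Insulin against IGF-1 gave 267 to 402 calls when single libraries were left out, lowest without insulin library 1, with 79 to 148 up and 186 to 254 down, and 6 to 14 up and 6 to 17 down past 1.5-fold. Without a filter 18 up and 20 down passed 1.5-fold.

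With the replicate number as a block, 7229 genes were called for insulin against vehicle, 0 for the genotypes and 428 for insulin against IGF-1, against 7239, 0 and 417. Whether libraries of the same number share an origin is not stated.

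Directions reversed for genes near 0 that did not pass. The log2 changes without single libraries ran from -0.18 to 0.47 for Apoa2, -0.0503 to 0.0674 for Bcl2l11, -0.25 to 0.0248 for Chac1, -0.00702 to 0.18 for Kdr and -0.0290 to 0.0768 for Tfeb. Without the libraries with over 50 Alb counts they were -0.43 for Apoa2, -0.000929 for Bcl2l11 and 0.28 for Chac1, and without those of high shares outside genes -0.0124 for Bcl2l11 and 0.10 for Chac1. Bcl2l11 went to -3.8e-05 without a filter.

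Depth limits the genes under about 10 counts, which were not tested, and the intervals of low genes; 3025 genes had no adjusted p from DESeq2 for insulin against IGF-1. Alb passed without a filter (log2 change 1.38), without insulin library 2 (1.78) and without vehicle library 4, which leaves the vehicle group at 0 counts and no fold (edgeR adjusted p = 5.13e-06), so single libraries decided its call, and its part in other results was not tested.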

Other observations

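Of the genes called both in IRKO and in IRflox astrocytes, 3 were called in opposite directions. Sirt6, a nuclear deacetylase, was 14.4 ± 0.914 CPM under vehicle and 16.9 ± 1.69 CPM under insulin in IRKO, and 16.6 ± 0.582 and 13.99 ± 1.30 CPM in IRflox (SD, n = 4). Grin3b, a glutamate receptor subunit that shares exon length with another measured gene, was 4.50 ± 0.537 and 6.38 ± 0.459 CPM in IRKO, and 6.11 ± 1.10 and 4.66 ± 0.872 CPM in IRflox. Gm23935, a non-coding RNA gene, was 2270.1 ± 912 and 3436 ± 959 CPM in IRKO, and 3482 ± 863 and 2286 ± 153 CPM in IRflox. The tests of the genotype difference itself gave edgeR adjusted p-values of 0.698, 0.59 and 0.276, with log2 differences of 0.49, 0.89 and 1.20. Without a filter on low counts the differences of Grin3b and Gm23935 passed (log2 differences 0.88 and 1.19). That of Gm23935 also passed without IRKO vehicle library 1 or IRKO insulin library 1.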
